A study of Mus musculus with 8 samples.

Results

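Aminoacyl-tRNA synthetases, the enzymes that charge transfer RNAs, were followed in a mouse Sertoli cell line over a time course of bisphenol A (BPA). Members were found by gene symbol alone, as the probe sets with 1 gene symbol that names a synthetase (a one-letter amino acid code followed by "ars", with or without a 1 or 2, and Eprs, Farsa, Farsb, Fars2, Ears2 and Pars2). This rule used no measured value, though the members were chosen with earlier results of these data known. It found 26 genes read by 48 probe sets, of 12393 genes and 20380 single-symbol probe sets on the array. Of these genes, 16 encode cytosolic enzymes (33 probe sets), 8 encode mitochondrial enzymes (13 probe sets), and Gars and Kars each encode the enzyme of both compartments (2 probe sets). Synthetase genes without a single-symbol probe set, such as Mars and Dars, were not analysed here.

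The cells were TTE3, a line of testicular Sertoli cells made from transgenic mice whose transgene is the SV40 large T-antigen in a temperature-sensitive form. All 4 groups were this 1 line in 0.2 mM BPA, a monomer of polycarbonate plastics, for 0, 3, 6 or 12 h, with 2 one-colour Affymetrix arrays at each time and 8 in all. Whether replicate arrays are separate cultures is not in the labels, so each p-value rests on the spread between these samples alone, and that spread may be technical. No array of cells kept without BPA for 3, 6 or 12 h was analysed here, so BPA and time in culture cannot be told apart in any change below.

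Each synthetase joins 1 kind of amino acid to the tRNAs that carry its anticodons, and so sets which amino acid a codon is read as. Most amino acids have one nuclear gene for the enzyme of the cytosol and another for that of the mitochondrion. Several cytosolic enzymes sit together in the multisynthetase complex around the scaffold proteins Aimp1, Aimp2 and Eef1e1. Many cytosolic synthetase genes are known targets of ATF4, a transcription factor made when amino acids run short or unfolded proteins load the endoplasmic reticulum, which binds with C/EBP proteins to a composite element.

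Stretches of promoter that hold the letters of this element are shown first, because their genes come back in the results. Windows reach from 250 bases before to 50 bases after a gene's start in the RefSeq promoter table of build GRCm38.p6, which held 17 of the 26 genes; Cars, Hars, Hars2, Lars, Nars, Pars2, Rars, Vars and Wars were not matched. The letters TGATGNAA were searched on both strands and found in 5 of the 17 windows, those of Aars, Gars, Iars, Tars and Yars. All 5 are among the 11 windows of cytosolic or shared enzymes, and 0 of 6 mitochondrial windows held a match. Of all 32851 windows in the table, 1304 (3.97%) held one. The sequences run 5′ to 3′ along the gene's strand, and capitals mark the match. Their places are, in order, chr8:111033840-111033869 (+) for Aars, chr6:55037960-55037989 (+) for Gars, chr13:49682126-49682155 (+) for Iars and chr4:129189895-129189924 (+) for Yars.
Aars, after the start: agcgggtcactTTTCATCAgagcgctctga
Gars, before the start: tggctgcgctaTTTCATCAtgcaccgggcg
Iars, after the start: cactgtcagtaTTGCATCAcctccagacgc
Yars, after the start: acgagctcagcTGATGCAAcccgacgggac

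Tars is shown over the whole 250 bases before its start, chr15:11399659-11399908 (-), because the stretch holds both motifs searched and because its rise from 6 to 12 h was the largest of the 26 genes. Capitals mark, from left to right, a match to the 10-base NRF1 core motif, NRF1 being a factor known for nuclear genes of mitochondrial proteins, and then a match to TGATGNAA on the opposite strand. The NRF1 core, also searched on both strands, was found in 4 of the 17 windows (Farsb, Iars2, Kars and, at 2 places, Tars), against 4.6% of all windows. No match of one motif overlapped a match of the other in these windows. A match is only a run of letters, and binding was not measured.
Tars, before the start: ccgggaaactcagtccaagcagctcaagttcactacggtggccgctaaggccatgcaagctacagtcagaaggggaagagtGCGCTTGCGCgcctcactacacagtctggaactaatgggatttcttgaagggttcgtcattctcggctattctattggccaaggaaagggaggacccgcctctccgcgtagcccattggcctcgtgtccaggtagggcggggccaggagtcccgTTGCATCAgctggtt

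Signals are the authors' linear intensities per probe set, which had been scaled so that their mean, without the top and bottom 2%, was 500.16 to 500.18 on every array. Changes are differences of log2(signal + 7.9) between times, given with the standard error of the model, and this scale understates changes of low signals. A gene is called when its limma p, after Benjamini-Hochberg adjustment over the 8675 genes tested, is under 0.05. All 26 synthetase genes passed the filter on low signals. Replicates correlated at 0.974 to 0.984 across genes, and Gapdh control probe sets had 3′ over 5′ signal ratios of 0.713 to 0.820. Of 14 Sertoli markers on the array 9, among them Sox9, Wt1 and Gata4, passed the filter, while Amh, Amhr2, Fshr, Dhh and Cldn11 did not. The summed signal of the 14 was 10692 to 11051 at 0 h and 6077 to 7327 at 12 h, and that of 7 peritubular and fibroblast markers was 9664 to 9751 and 4474 to 5307. At 12 h, 2 of the 9 Sertoli markers that passed were called higher and 2 lower, shares near those of all genes tested (20.9% and 17.5%). Of the 5 peritubular and fibroblast markers that passed, 2 were called lower and none higher. Fewer cells of a type and less RNA per cell cannot be told apart in these bulk samples, and the part of these shifts in the results below was not tested. Leydig, germ cell, macrophage and endothelial marker sums lay between 103 and 700 on every array.

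By 12 h most cytosolic synthetase genes had risen, and a smaller share of the mitochondrial ones had. At 12 h, 12 of the 16 cytosolic genes were called higher and none lower, with a median change of 0.74, where 20.9% of all genes tested were called higher, 17.5% lower, and the median was 0.06. The 12 were Nars, Lars, Tars, Cars, Eprs, Sars, Aars, Rars, Farsb, Iars, Farsa and Yars, with changes from 1.16 down to 0.48. Hars, Vars, Wars and Qars were not called, though at an unadjusted p under 0.05 Wars counted as higher and Qars as lower. Of the mitochondrial genes 3 of 8 were called higher and 1 lower, the latter a share near that of all genes, with a median of 0.34. Gars rose and Kars was not called.

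Calls of cytosolic genes began at 6 h, and 8 of the 12 genes called higher at 12 h were already called at 6 h. At 3 h no cytosolic gene was called in either direction (2 higher, Cars and Lars, and none lower at an unadjusted p under 0.05), where 8.55% of all genes were called higher and 3.53% lower. The cytosolic median at 3 h was 0.11 beside 0.06 for all genes, and it was -0.02 when arrays were scaled to the same median signal, a scaling that moved the median of all genes to -0.07. At 6 h, 8 of 16 were called higher and none lower, against 16.8% and 9.73% of all genes, and the median was 0.35 beside 0.07. The 3 comparisons with 0 h share the same 2 control arrays, so they do not count as separate evidence. Over the whole time course the moderated F test called 11 cytosolic genes (the 12 without Yars), 4 mitochondrial genes and Gars, where 35.8% of all genes were called.

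**Figure D1:**
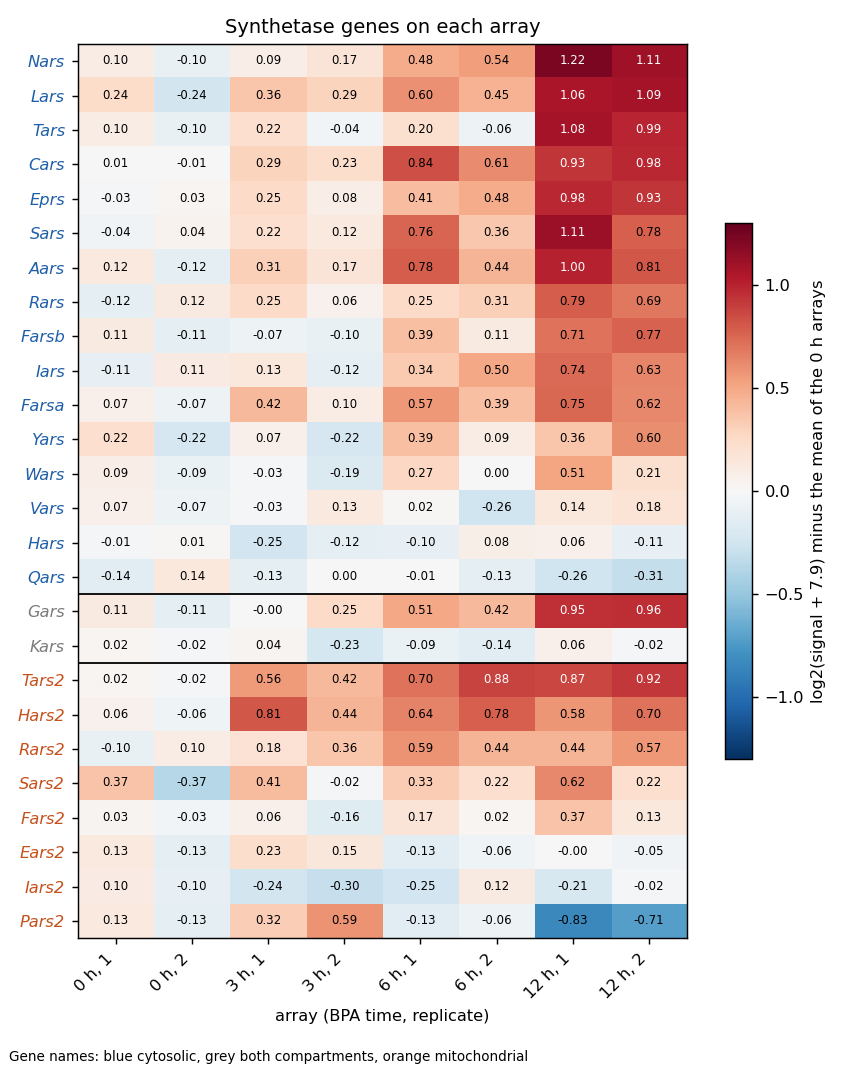
Level of each synthetase gene (rows) on each of the 8 arrays (columns, BPA time and replicate), as log2(signal + 7.9) minus the mean of the 0 h arrays; gene names are blue for cytosolic, grey for both compartments and orange for mitochondrial enzymes. The upper 11 cytosolic genes and Gars are highest on the 12 h arrays, Tars stays near 0 through 6 h, and Pars2 is lowest at 12 h.

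The genes that rose most encode enzymes outside the multisynthetase complex as well as within it. Nars, which charges asparagine tRNA, had signals of 2589 and 2266 at 0 h, 2574 and 2721 at 3 h, 3375 and 3528 at 6 h and 5668 and 5221 at 12 h. Its 3 h arrays overlapped those of 0 h, the 6 h arrays lay above both times, and the 12 h arrays apart from all others. That was a rise of 0.51 ± 0.11 by 6 h (adjusted p = 0.00399) and of 1.16 ± 0.11 by 12 h (adjusted p = 4.05e-06), the largest of the 26 genes.

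Tars, the threonyl enzyme, followed another course. Its signals were 1640 and 1432 at 0 h, 1787 and 1491 at 3 h, 1766 and 1467 at 6 h, and 3256 and 3045 at 12 h. Arrays of the first 3 times overlapped, and both 12 h arrays lay far above them. The change was 0.09 at 3 h and 0.07 at 6 h, neither called, and 1.04 ± 0.13 at 12 h (adjusted p = 4.94e-05).

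Cars, the cysteinyl enzyme, was the cytosolic gene with the largest change at 6 h. Signals were 783 and 776 at 0 h, 958 and 914 at 3 h, 1399 and 1196 at 6 h, and 1497 and 1550 at 12 h. The times did not overlap and each lay above the one before. Its rise was 0.72 ± 0.12 at 6 h (adjusted p = 0.000621) and 0.96 ± 0.12 at 12 h (adjusted p = 3.71e-05). A second probe set of Cars, with signals of 7.6 to 58.8, did not reach the filter, and averaging both turned the change to -0.54 at 3 h, -0.19 at 6 h and -0.17 at 12 h.

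Sars and Aars charge serine and alanine tRNAs, and each is read by a pair of probe sets. Sars had signals of 2593 and 2756 at 0 h, 3120 and 2910 at 3 h, 4524 and 3422 at 6 h, and 5778 and 4591 at 12 h. Aars had 2533 and 2129, then 2888 and 2615, then 4005 and 3158, and at last 4644 and 4084. For both genes every array of 3 h and later exceeded both 0 h arrays, and the replicates of 6 h differed more than those of other early times. Rises at 12 h were 0.94 ± 0.14 for Sars (adjusted p = 0.000201) and 0.90 ± 0.14 for Aars (adjusted p = 0.000187).

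Gars, which makes the glycyl enzyme of cytosol and mitochondrion from one gene, moved like the cytosolic genes. Its signals were 1983 and 1693 at 0 h, 1830 and 2184 at 3 h, 2605 and 2453 at 6 h, and 3553 and 3576 at 12 h. The 0 h and 3 h arrays overlapped, and those of 6 and 12 h did not overlap any other time. The rise was 0.46 ± 0.12 at 6 h (adjusted p = 0.0126) and 0.96 ± 0.12 at 12 h (adjusted p = 4.61e-05). Kars, the lysyl enzyme of both compartments, ranged from 1351 to 1654 over all 8 arrays and had a change of 0.02 ± 0.12 at 12 h (adjusted p = 0.915).

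Phenylalanyl-tRNA synthetase of the cytosol is built of the Farsa and Farsb subunits. Farsa had signals of 574 and 521 at 0 h, 733 and 585 at 3 h, 813 and 721 at 6 h, and 923 and 845 at 12 h. Farsb had 594 and 506, then 524 and 512, then 720 and 594, and at last 899 and 942. Farsa lay above its 0 h arrays from 3 h on, while Farsb overlapped them at 3 h and its lower 6 h array (594) was level with the upper 0 h array (594). At 12 h the changes of the subunits were close, 0.68 ± 0.14 for Farsa (adjusted p = 0.00195) and 0.74 ± 0.14 for Farsb (adjusted p = 0.000996). The call of Farsb was lost with the mean of all its probe sets (0.41, adjusted p = 0.159).

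Yars, the tyrosyl enzyme, gave the least secure of the cytosolic calls. Signals were 711 and 520 at 0 h, 637 and 521 at 3 h, 799 and 649 at 6 h, and 785 and 929 at 12 h. The 0 h arrays were wide apart, but both 12 h arrays lay above them. The rise at 12 h was 0.48 ± 0.17 (adjusted p = 0.0424). It did not pass without replicate 2 at 0 h (0.26, adjusted p = 0.373) or without replicate 2 at 12 h (0.36, adjusted p = 0.221), nor under 5 other settings (adjusted p from 0.0521 to 0.113).

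Of the enzymes in the multisynthetase complex, Lars, Eprs, Rars and Iars rose at 12 h. Lars, the leucyl enzyme, had signals of 849 and 604 at 0 h, 921 and 877 at 3 h, 1087 and 984 at 6 h, and 1505 and 1529 at 12 h. Its 12 h arrays were close together and above all others, for a rise of 1.07 ± 0.15 (adjusted p = 9.82e-05), while the 0 h arrays were the widest apart. Eprs, which charges both glutamate and proline tRNAs, had 865 and 897, then 1052 and 934, then 1169 and 1235, and at last 1742 and 1685. Each time lay above the one before without overlap, and the rise at 12 h was 0.95 ± 0.11 (adjusted p = 2.96e-05).

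Rars, the arginyl enzyme, had signals of 2451 and 2890 at 0 h, 3165 and 2771 at 3 h, 3169 and 3295 at 6 h, and 4608 and 4295 at 12 h. The arrays of 0 and 3 h overlapped, and the change was 0.28 at 6 h (adjusted p = 0.0983) and 0.74 ± 0.12 at 12 h (adjusted p = 0.000263). Iars, the isoleucyl enzyme, had 887 and 1031, then 1051 and 878, then 1217 and 1356, and at last 1599 and 1487. It showed no shift at 3 h (0.01 ± 0.13), stood apart from 0 h at 6 h and rose by 0.68 ± 0.13 by 12 h (adjusted p = 0.0011). Qars, the glutaminyl enzyme of the complex, went the other way without being called. Its signals were 1484 and 1799 at 0 h and 1360 and 1314 at 12 h, with the 12 h arrays below both, for a change of -0.29 ± 0.12 (adjusted p = 0.0813). Without replicate 1 at 0 h Qars was called lower, by 0.43, with an adjusted p just under the threshold.

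Hars, Vars and Wars, the histidyl, valyl and tryptophanyl enzymes, were not called at any time. Signals of Hars ran from 2633 to 3297 over the 8 arrays with a change of -0.02 ± 0.11 at 12 h. Those of Vars ran from 392 to 534 with 0.16 ± 0.15, and those of Wars from 381 to 624 with 0.36 ± 0.16 (adjusted p = 0.0932). In Wars the 12 h arrays (624 and 505) were above those of 0 h (463 and 409), as were those of Vars (520 and 534 against 495 and 448). In Hars the arrays of 0 and 12 h overlapped, and those of 3 h (2633 and 2869) lay below both 0 h arrays.

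By arrays alone, 14 of the 16 cytosolic genes had both 12 h arrays above both 0 h arrays, Qars had both below, and Hars overlapped. Among all genes tested 38.6% had both arrays above and 30.9% both below. At 6 h, 10 cytosolic genes had both arrays above and none below, against 36.6% and 25.4% of all genes. At 3 h it was 6 above and 1 below, against 34.7% and 23.3%. By adjusted p, 20.9% of all genes were called higher and 17.5% lower at 12 h, with a median of 0.06. Mitochondrial enzymes left out, 4 of 6 genes inside the complex were called higher (median 0.71, Kars counted). Outside it 9 of 12 were (median 0.82, Gars counted), and none was called lower in either group. By fold of the catalytic domain, again without mitochondrial enzymes, 5 of 8 class I enzymes were called higher (median 0.58) and 7 of 9 class II enzymes (median 0.90). Eprs, which carries a domain of each class, was left out. These group differences were not tested.

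Of the 12 calls at 12 h, 9 stood under all 19 alternative settings (Aars, Eprs, Farsa, Iars, Lars, Nars, Rars, Sars and Tars), as did Gars. At 6 h none of the 8 did, and their number fell to 4 or 2 when replicate 1 or 2 of 0 h was left out, and to 5 when replicate 1 of 6 h was. Without replicate 1 at 0 h the 6 h calls of Eprs, Farsa, Iars and Sars were lost (adjusted p = 0.0865, 0.0655, 0.237 and 0.0923). Without replicate 2 at 0 h those of Aars, Eprs, Farsa, Lars, Nars, Sars and Gars were lost (0.0735, 0.0563, 0.161, 0.250, 0.0643, 0.0511 and 0.147). Without replicate 1 at 6 h those of Farsa, Lars, Sars and Gars were lost (0.120, 0.0909, 0.0961 and 0.0531), and without replicate 2 at 6 h that of Iars (0.125). Scaling to the same median ended those of Eprs, Farsa, Iars, Lars and Gars (0.0596, 0.0902, 0.112, 0.0695 and 0.0558), and a model without the intensity trend those of Farsa, Iars, Lars, Sars and Gars (0.0665, 0.0874, 0.0751, 0.0695 and 0.0605). Quantile normalization ended that of Farsa (0.0564) and added Rars (0.0376). Apart from Cars, whose mean over both probe sets was below 0, the changes of these genes at 6 h were above 0 under all 19 alternatives.

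**Figure D2:**
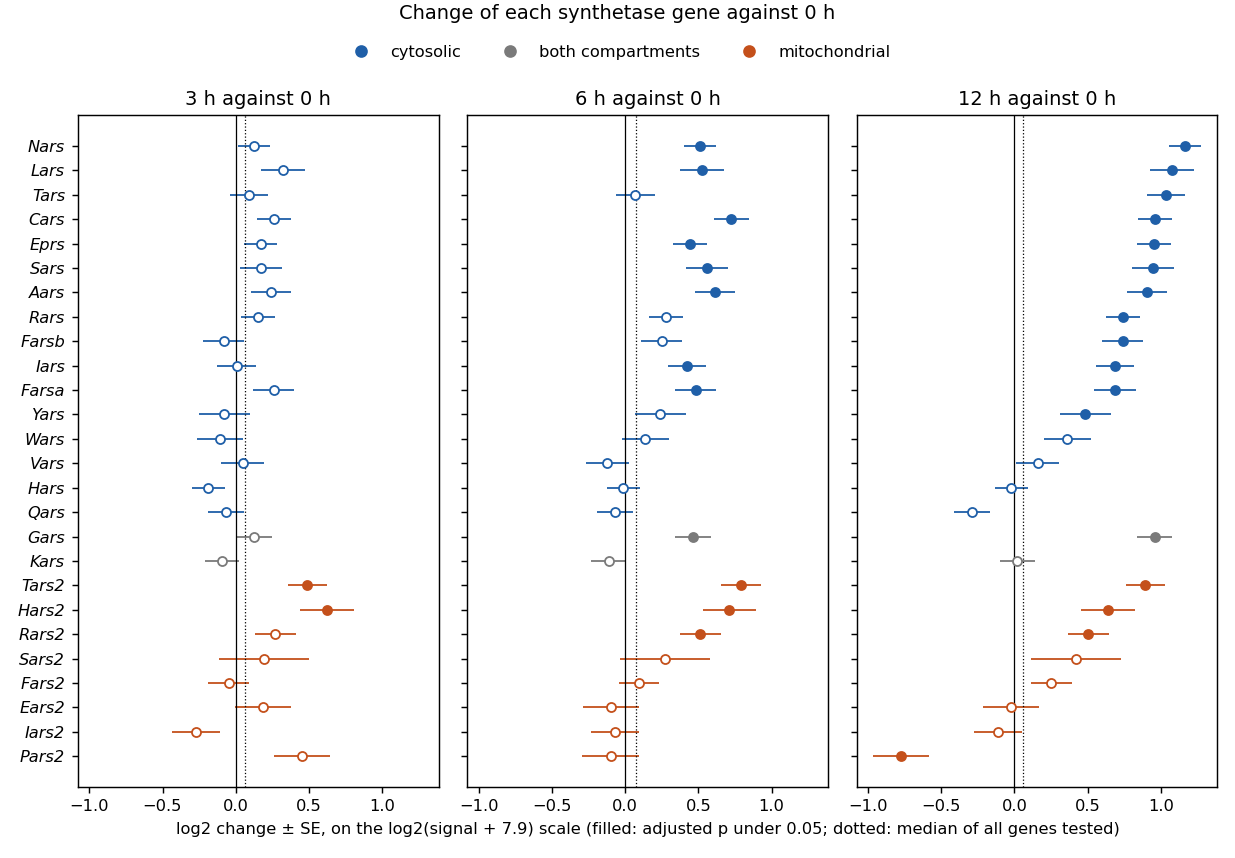
Log2 change ± SE of each synthetase gene against 0 h at 3, 6 and 12 h (n = 2 arrays a time); filled points have an adjusted p under 0.05 and the dotted line is the median of all genes tested. Of the cytosolic genes 0, 8 and 12 are filled at 3, 6 and 12 h, while among mitochondrial genes Tars2 and Hars2 are filled at each time and Pars2 lies at -0.77 at 12 h.

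Rises were called between 6 and 12 h and not between 3 and 6 h. From 6 to 12 h, 4 cytosolic genes and Gars were called higher and no synthetase lower, where 0.922% of all genes were called higher and 3.85% lower. Tars rose by 0.96 ± 0.13 (adjusted p = 0.00207) and Nars by 0.66 ± 0.11 (adjusted p = 0.00464), and Eprs, Gars and Rars by 0.51, 0.49 and 0.46 (adjusted p = 0.0242, 0.0352 and 0.0411). The median over the cytosolic genes was 0.29 and over all genes -0.02. From 3 to 6 h no synthetase was called in either direction (limma; 0.565% of all genes higher and 0.553% lower), though the cytosolic median was 0.26. At an unadjusted p under 0.05, 9 of the 26 were higher and 1 lower in that step, and 8 were higher and 1 lower from 6 to 12 h. Whether the 2 steps differ was not tested. From 3 to 12 h, 12 cytosolic genes, Gars and Tars2 were called higher and Pars2 lower, against 9.52% and 12.4% of all genes.

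The step of Tars to 12 h was called under all 19 alternatives, and that of Nars under all but the model without the intensity trend (adjusted p = 0.0657). The other calls did not stand under all settings, and without replicate 1 or 2 at 12 h the cytosolic count was 2. That of Eprs was lost without either 0 h array (adjusted p = 0.0521 and 0.0516), without either 12 h array (0.135 and 0.0665) and without the first of 6 h (0.0798). Gars lost its call without either array of 0, 6 or 12 h (0.0557 to 0.143), and Rars without any 1 of the 8 arrays (0.0549 to 0.207). Without the trend Eprs, Gars and Rars did not pass either (0.0955, 0.145 and 0.154).

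Mitochondrial enzymes, which charge the tRNAs encoded by the mitochondrial genome, had higher calls at each time and 1 lower call, that of Pars2 at 12 h. At 3 h, 2 of 8 were called higher (Hars2 and Tars2) and none lower, with a median of 0.23, against 8.55% and 3.53% of all genes and their median of 0.06. At 6 h, 3 were called higher (Hars2, Rars2 and Tars2) and none lower (none also at an unadjusted p under 0.05), with a median of 0.18, against 16.8% and 9.73% of all genes and their median of 0.07. At 12 h the same 3 were called higher and Pars2 lower, against 20.9% and 17.5% of all genes. The share called lower was thus near that of all genes. The median rested on single arrays: without replicate 1 at 0 h it was 0.41 at 3 h, and without replicate 2 at 0 h it was -0.01 at 6 h and 0.14 at 12 h. Both 12 h arrays lay above both 0 h arrays in 4 of the 8 genes and below in 1, against 38.6% and 30.9% of all genes, so the share above was near that of all genes.

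Tars2, the threonyl enzyme of mitochondria, had signals of 361 and 349 at 0 h, 526 and 478 at 3 h, 583 and 660 at 6 h, and 654 and 677 at 12 h. Arrays of 3 h were above those of 0 h and below those of 6 h, and the 6 and 12 h arrays overlapped. Its change was 0.49 ± 0.13 at 3 h (adjusted p = 0.0309), 0.79 ± 0.13 at 6 h (adjusted p = 0.000839) and 0.89 ± 0.13 at 12 h (adjusted p = 0.000188). The calls at 6 and 12 h stood under all 19 alternatives. At 3 h the call was lost without any 1 of the 0 h and 3 h arrays (adjusted p = 0.0784 to 0.188) and under 4 other settings (0.0564 to 0.107).

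Hars2, the mitochondrial histidyl enzyme, had 187 and 172 at 0 h, 321 and 246 at 3 h, 284 and 314 at 6 h, and 272 and 297 at 12 h. All arrays with BPA for 3 h or longer stood above the 0 h arrays, and among themselves they overlapped. Its change was 0.62 ± 0.18 at 3 h, 0.71 ± 0.18 at 6 h and 0.64 ± 0.18 at 12 h (adjusted p = 0.0413, 0.0115 and 0.0138). At 3 h the call was lost without either 0 h array (adjusted p = 0.122 and 0.205), without replicate 1 at 3 h (0.297) and under 6 other settings (0.0550 to 0.204). Without replicate 2 at 0 h the later calls did not pass (0.0797 for 6 h, 0.0855 for 12 h). The 6 h call also needed replicate 2 of its own time (0.0602 without it), as did the 12 h call (0.0750). A second, dimmer probe set (12.3 to 84.8) had a change of -0.94 ± 0.52 at 12 h, and the mean of both was 0.15 at 6 h and -0.15 at 12 h (adjusted p = 0.742 and 0.722).

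Rars2, the arginyl enzyme of mitochondria, had signals of 406 and 467 at 0 h, 495 and 560 at 3 h, 657 and 593 at 6 h, and 594 and 650 at 12 h. The 0 h arrays were lowest, and the 6 and 12 h arrays covered the same range. It rose by 0.51 ± 0.14 at 6 h and by 0.51 ± 0.14 at 12 h (adjusted p = 0.0161 and 0.0118). Without replicate 1 at 0 h neither call passed (0.143 and 0.111), nor did they without replicate 1 at 6 h (0.0860, at 6 h), without replicate 2 at 12 h (0.0754, at 12 h) or, for the 6 h call, after scaling to equal medians (0.0502).

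Pars2, the mitochondrial prolyl enzyme, was the 1 synthetase gene called lower. Its signals were 258 and 214 at 0 h, 295 and 357 at 3 h, 214 and 225 at 6 h, and 128 and 140 at 12 h. The 3 h arrays were highest, those of 6 h stood within or at the edge of the 0 h range, and those of 12 h were the lowest of the series. The change was 0.45 ± 0.19 at 3 h (adjusted p = 0.155) and -0.77 ± 0.19 at 12 h (adjusted p = 0.00606). Without replicate 1 at 0 h the 12 h call was lost (-0.64, adjusted p = 0.0689).

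The other mitochondrial genes were not called at any time. Fars2 ranged from 544 to 788 over the 8 arrays and had a change of 0.25 ± 0.14 at 12 h, with its 12 h arrays above those of 0 h. Sars2 had a change of 0.42 ± 0.31 and 0 h arrays far apart (130 and 75.4). Iars2 (353 to 476) and Ears2 (179 to 232) had changes of -0.11 ± 0.16 and -0.02 ± 0.19, and their 12 h arrays overlapped those of 0 h. At 3 h the arrays of Iars2 (369 and 353) lay below those of 0 h (471 and 407), and those of Ears2 (232 and 219) above (216 and 179), neither called.

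Genes for the same amino acid in the 2 compartments could be set side by side in 9 pairs. Levels are not compared, since each probe set has its own brightness, and only changes are. An exact permutation test of 2 arrays against 2 cannot give a p under 0.333, and the differences were not tested in a model either, so they are given as values. The ± of a pair difference, here and in the next paragraph, is not the standard error of the model. It comes from the spread of the 2 arrays at each of the times compared, and with so few arrays it can be far too small. At 12 h the change of the cytosolic gene exceeded that of the mitochondrial one by 1.73 ± 0.18 for Eprs and Pars2, 0.98 ± 0.16 for Eprs and Ears2 and 0.80 ± 0.26 for Iars and Iars2. It was larger by 0.52 ± 0.41 for Sars and Sars2, by 0.43 ± 0.07 for Farsa and Fars2 and by 0.49 ± 0.17 for Farsb and Fars2. Hars and Hars2 went the opposite way, with a difference of -0.66 ± 0.16 at 12 h, -0.73 ± 0.08 at 6 h and -0.81 ± 0.26 at 3 h. That order rests on the probe sets that represent these genes: with the mean of all probe sets the 12 h changes were 0.16 for Hars and -0.15 for Hars2. For Ears2 that mean had a 12 h change of 0.51, not called, though its other probe sets did not pass the filter.

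The threonyl pair changed order with time. The change of Tars minus that of Tars2 was -0.40 ± 0.10 at 3 h and -0.72 ± 0.23 at 6 h, with the ratio below that of 0 h in both arrays. By 12 h the difference was 0.14 ± 0.10 and the arrays overlapped. Rars and Rars2 gave -0.23 ± 0.10 at 6 h and 0.23 ± 0.12 at 12 h. In both pairs the mitochondrial change was the larger at 6 h. At 12 h the cytosolic one was the larger for Rars and Rars2, while for Tars and Tars2 the overlap leaves the order unclear.

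**Figure D3:**
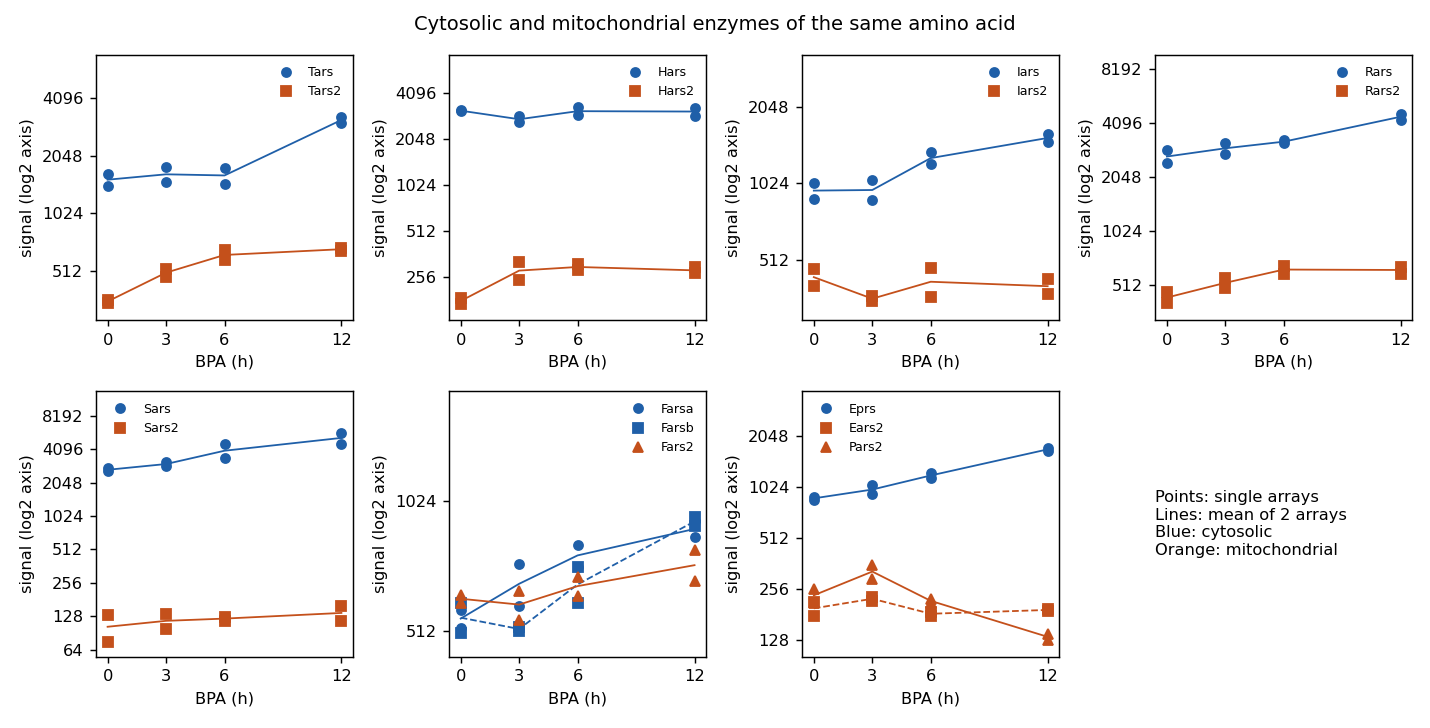
Signals of cytosolic (blue) and mitochondrial (orange) synthetase genes of the same amino acid against hours of BPA, on a log2 axis; points are single arrays and lines join the means of 2 arrays. Tars climbs between 6 and 12 h where Tars2 has climbed by 6 h, Hars is flat where Hars2 is up from 3 h, and Pars2 drops at 12 h while Eprs rises.

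Agreement between probe sets of 1 gene varied. Of the 48 probe sets 43 passed the filter when each was tested as a feature of its own, and 14 genes had more than 1 probe set. In Aars, Eprs, Iars, Nars, Sars and Tars2 each tested probe set was called higher at 12 h. Nars had changes of 1.16 and 0.76, Iars of 0.68 and 0.88, and Tars2 of 0.89 and 1.01. Eprs was called in all 3 of its probe sets, at 0.95, 0.95 and 0.70.

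Other genes depended on the probe set. The dimmer probe set of Hars, at signals of 747 to 1072, had a change of 0.35 ± 0.13 at 12 h (adjusted p = 0.0483), while the brighter one that represents the gene had -0.02. Farsb had 0.74, 0.72 and 0.30, and the second of these was already called at 3 h (0.50, adjusted p = 0.0417). Qars had -0.29, -0.28 and 0.25, and Wars from 0.01 to 0.36, none of them called. Eprs, Farsb, Iars and Wars are represented by probe sets of a kind (suffix _s_at or _x_at) that can bind transcripts of more than 1 gene, so their values are uncertain to that degree.

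**Figure D4:**
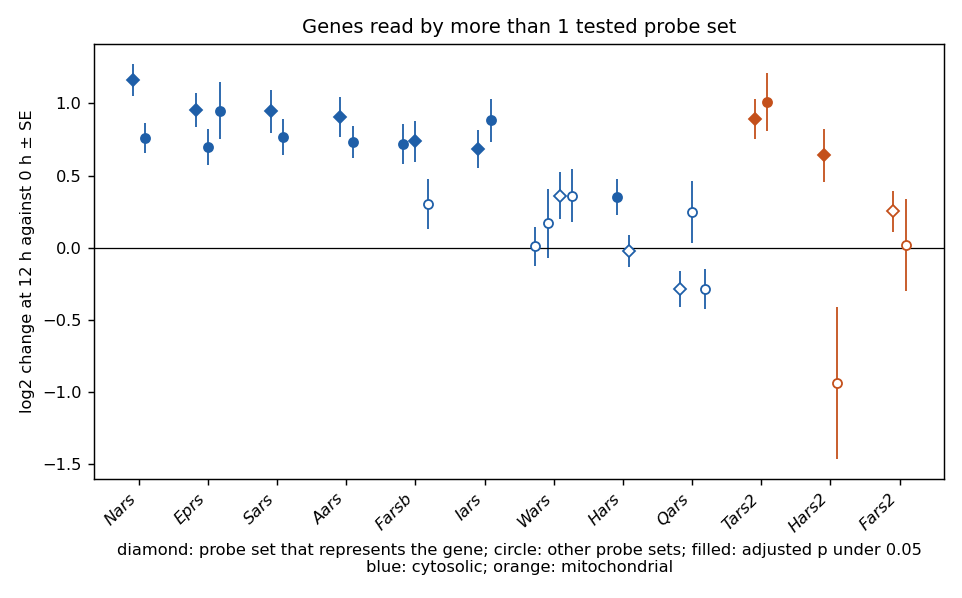
Log2 change ± SE at 12 h against 0 h of each tested probe set, for the synthetase genes with more than 1; diamonds are the probe sets that represent the gene, circles the others, and filled symbols have an adjusted p under 0.05. Probe sets of Nars, Eprs, Sars, Aars, Iars and Tars2 are all filled and above 0, while those of Hars2 lie at 0.64 and -0.94.

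Set beside the promoter windows shown above, the genes with TGATGNAA were Tars, Gars, Aars, Iars and Yars, with changes at 12 h of 1.04, 0.96, 0.90, 0.68 and 0.48, all called. The 6 cytosolic or shared genes whose windows held no match included Eprs (0.95), Sars (0.94), Farsb (0.74) and Farsa (0.68), also called, and Kars (0.02) and Qars (-0.29), which were not. The windows with the NRF1 core belonged to genes with changes of 1.04 (Tars), 0.74 (Farsb), 0.02 (Kars) and -0.11 (Iars2).

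Genes that work beside the synthetases were counted in the same fit, where 20.9% of all genes were called higher and 17.5% lower at 12 h. Of the scaffold genes of the multisynthetase complex, Eef1e1 (0.69 ± 0.11) and Aimp1 (0.53 ± 0.11) rose at 12 h, and Aimp2 had a change of -0.11. Of 8 tested synthetase-like, proofreading and amidotransferase genes, 2 rose and 1 fell, shares near those of all genes. The risers were Pstk (0.85), which phosphorylates seryl-tRNA on the way to selenocysteine, and Aarsd1 (0.55), which removes wrongly attached amino acids from alanine tRNA. Mtfmt, which formylates the initiator methionyl-tRNA of mitochondria, fell by 0.70. The call of Aarsd1 was lost without replicate 2 at 0 h (0.38, adjusted p = 0.127).

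Among 28 genes of tRNA modification 14 rose and 1 fell at 12 h, with a median of 0.47, where 20.9% of all genes rose, 17.5% fell and the median was 0.06. Trit1, which adds an isopentenyl group next to the anticodon, rose by 1.80 ± 0.15, Trmt10c, a subunit of mitochondrial ribonuclease P, by 1.71 ± 0.15, and Qtrt1, which inserts queuine, by 1.42 ± 0.23. Ftsj1, a ribose methyltransferase, fell by 0.76. Of 17 genes of tRNA processing and export 9 rose and 3 fell (median 0.37), the latter a share near that of all genes. Elac1 and Elac2, which trim the 3′ end, rose by 1.63 and 0.68 and Rpp14, a ribonuclease P subunit, by 0.73. Xpot, which exports tRNA from the nucleus, fell by 1.16 ± 0.14, and Clp1 and Tsen34 of the splicing endonuclease complex fell by 0.72 and 0.58. The call of Clp1 was lost without either 0 h array or replicate 2 at 12 h (adjusted p = 0.0818, 0.0732 and 0.149).

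Of 15 genes of RNA polymerase III, which transcribes tRNA genes, 4 rose and 1 fell, with a median of 0.03, against 20.9% and 17.5% of all genes and their median of 0.06. Polr3a, the largest subunit, rose by 0.89, Polr3c by 0.76 and Polr3f by 0.70, and the TFIIIC subunit gene Gtf3c2 fell by 0.66. Without replicate 2 at 0 h Polr3a did not pass (0.61, adjusted p = 0.0541). Polr3f did not pass without either array of 0 or 12 h (0.0711 to 0.136), and its mean over all probe sets was 0.13. Of 10 mitochondrial translation and transcription factors 4 rose and 1 fell (median 0.19), beside the same shares of all genes. Gfm2 and Mrrf, which recycle mitochondrial ribosomes, rose by 1.24 and 0.83, Tfb1m, a methyltransferase of mitochondrial ribosomal RNA, by 0.72, and Lrpprc, which binds mitochondrial mRNA, fell by 0.90. Tfb1m did not pass without either array of 0 or 12 h (0.0713 to 0.137). Of 6 cytosolic elongation factors only Eef1a1, which brings charged tRNA to the ribosome, was called at 12 h (0.33 ± 0.12, adjusted p = 0.0373). That share was near the 20.9% of all genes called higher, and the change of Eef1a1 was 0.00 after quantile normalization. The call of Eef1a1 also needed both 0 h arrays (adjusted p = 0.211 and 0.0785 without the first or the second), both 3 h arrays (0.0694 and 0.0701) and replicate 1 at 12 h (0.257).

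**Figure D5:**
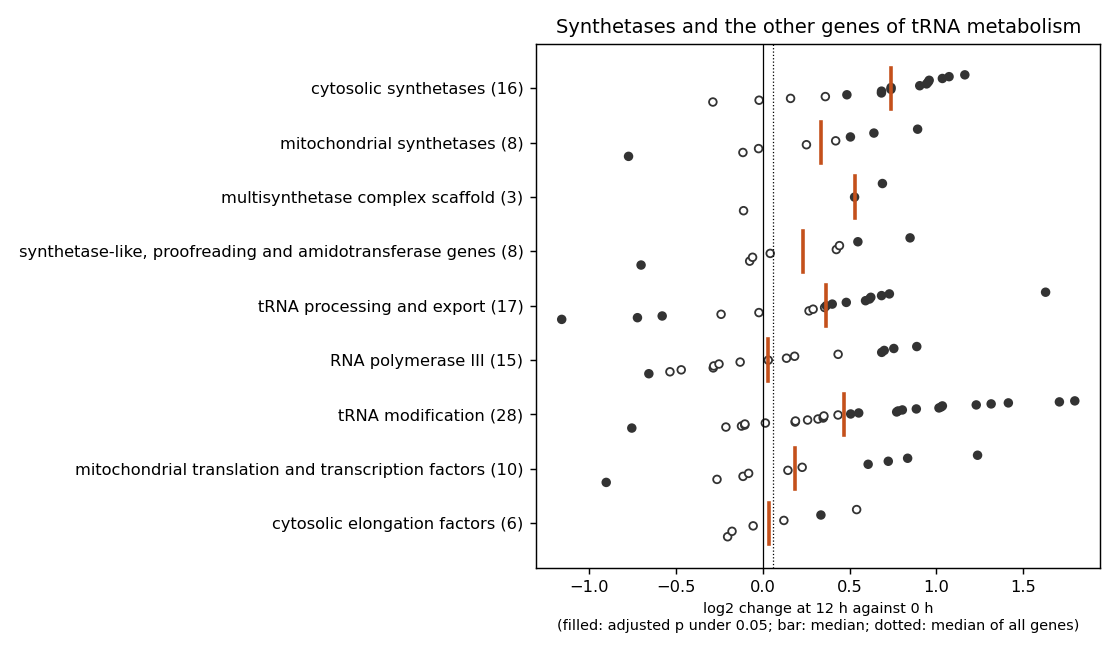
Log2 change at 12 h against 0 h of the tested genes of each group (number in brackets), with the group median as a bar and the median of all genes as a dotted line; filled points have an adjusted p under 0.05. Cytosolic synthetases have the highest median, 0.74, and tRNA processing, polymerase III and modification genes spread from -1.16 to 1.80.

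Atf4 and Ddit3, regulators of amino acid and endoplasmic reticulum stress, were already up at 3 h, by 2.04 and 2.41, and stood at 1.99 and 3.47 at 12 h, while no cytosolic synthetase was called at 3 h. Asns, which makes asparagine, rose by 0.49, 1.74 and 2.68 at 3, 6 and 12 h. Its call at 3 h was lost without replicate 1 at 0 h (adjusted p = 0.122) or replicate 1 at 3 h (0.102).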

How the data were processed

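Signals of Affymetrix Mouse Expression 430A arrays were used as deposited: linear intensities for 22690 probe sets, scaled by the authors. Which algorithm and software summarised the probes is not given in the sources used here, and no detection calls or scanner files were used. Control probe sets (64) were left out. Of the rest 20380 had 1 gene symbol, 691 several and 1555 none, and symbols were updated through Entrez identifiers to RefSeq GRCm38.p6.

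The offset of 7.9 is the 10th percentile of the signals. For each of 12393 genes the probe set of highest mean log2 signal was taken, and genes under the 30th percentile (3718) were left out. All 8 arrays entered 1 limma fit (lmFit and eBayes with an intensity trend, 4 residual degrees of freedom; limma 3.58.1, R 4.3.3), two-sided. Figures used Python 3.11.15 and matplotlib 3.10.9. In simulated data for 12 h against 0 h over 8675 genes, 25.67% of changes of 0.5, 74.93% of 1 and 97.27% of 2 on the log2 scale were found, with 5.479% false calls. Each of 5 runs held 200 changed genes, far fewer than the 1810 called higher and 1521 called lower at 12 h. The adjustment is stricter when fewer genes change, so the shares found do not carry over to these data.

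The 19 alternatives were 2 other scalings, 2 other offsets, 2 other filters, 2 other treatments of probe sets, a fit without trend, a fit of the groups compared alone, a replicate block and the omission of each array. All synthetases are named. Of each pathway list, up to 3 called genes with the largest rise and up to 3 with the largest fall at 12 h are named, as are Atf4, Ddit3 and Asns; of 163 list entries 131 were on the array. The members and lists were chosen with earlier results of these data known. One promoter stretch is not reported here.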

Additional observations from a re-analysis of the deposited data

Results flagged for a closer look

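In 15 synthetase genes the change at 12 h differed from the change at 3 h. Both changes use the same 0 h arrays, so their difference was tested directly as 12 h against 3 h in the limma fit, where 9.52% of all genes were called higher and 12.4% lower. Of the cytosolic genes, the difference was 1.04 for Nars (adjusted p = 3.99e-05), 0.94 for Tars (0.000314), 0.82 for Farsb (0.00127), 0.78 for Eprs (0.000414), 0.77 for Sars (0.00218), 0.75 for Lars (0.00339), 0.70 for Cars (0.00123), 0.68 for Iars (0.00287), 0.66 for Aars (0.00414), 0.59 for Rars (0.00346), 0.56 for Yars (0.0352) and 0.43 for Farsa (0.0480). Gars, which serves both compartments, had 0.83 (0.000411). Of the mitochondrial genes Tars2 had 0.40 (0.0479) and Pars2 -1.23 (0.000715), the 1 gene that went down. The calls of Farsa and Tars2 were each lost under 10 of the 19 alternatives and that of Yars under 5, and Cars and Farsb were not called with the mean of all probe sets (adjusted p = 0.377 and 0.446).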

How the results depend on the processing

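Over 98 results on single synthetase genes the alternatives gave 1856 values. Direction and side of the threshold were kept in 1680, a call was lost in 120 and gained in 3, and 50 values that were called neither as reported nor in the alternative changed sign, over 26 results. The direction of a called change turned in 3: with the mean of all probe sets, Cars was -0.19 at 6 h and -0.17 at 12 h and Hars2 -0.15 at 12 h. After scaling all arrays to 1 median, the mitochondrial genes called higher at 3 h went from 2 to 0, the cytosolic ones at 6 h from 8 to 4, the cytosolic median to -0.024 at 3 h and 0.24 at 6 h, and the mitochondrial median at 3 h to 0.10. The same scaling gave 462 genes higher and 645 lower at 3 h (742 and 306 as reported) and 1054 and 1199 at 6 h (1455 and 844). At 3 h the mitochondrial count was also 0 with quantile normalization, with the mean of all probe sets and without trend, and 1 without a filter and with every probe set as a feature; a stricter filter gave a median of 0.36. Without trend 469 genes were higher and 142 lower at 3 h, the cytosolic count was 4 at 6 h, and it was 1 for 12 h against 6 h, where the 2 groups alone gave 2. The 2 groups alone gave 485 genes lower at 3 h, and every probe set as a feature gave 1272 features lower at 6 h and 2409 at 12 h. The cause of these shifts was not tested.

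Leaving out each array in turn gave, at 3 h, 0 to 2 mitochondrial calls, 364 to 865 genes higher and 89 to 415 lower, and medians of 0.071 to 0.18 (cytosolic) and 0.19 to 0.41 (mitochondrial). At 6 h it gave 2 to 8 cytosolic calls, 923 to 1471 genes higher and 442 to 864 lower, and a mitochondrial median of -0.015 to 0.27. At 12 h it gave 1 to 3 mitochondrial calls higher and 0 to 1 lower, 0 to 1 cytosolic calls lower, and medians of 0.73 to 0.80 (cytosolic) and 0.14 to 0.41 (mitochondrial), and for 12 h against 6 h 2 to 3 cytosolic calls. Arrays of the same replicate number had deviations that correlated at -0.011 to 0.122, so the numbers were not taken as pairs; with the replicate block 13 cytosolic genes were called higher at 12 h, Wars being added (adjusted p = 0.0413), and 6 for 12 h against 6 h. The alternatives for 12 h against 6 h, for 12 h against 3 h and for the pathway genes were chosen after seeing the data. With 2 arrays a time small changes can be missed, and a p that misses the threshold does not show that values did not differ.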
